A study of Mus musculus with 12 samples.

Results

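The genes described are 9 markers of myelin and of mature oligodendrocytes, the cells that wrap axons of the brain in myelin: Mbp, Mobp, Cnp, Mog, Mag, Cldn11, Tspan2, Opalin and Ermn. They were chosen by name, from features that carry exactly 1 gene symbol, with the brightest feature kept for each symbol, and make up 9 of the 30142 genes measured in this way. Each of them had 1 such feature, and each lay above the median of its array on all 12 arrays. RNA from laser-captured mouse hippocampus was hybridised to 12 Affymetrix whole-transcriptome arrays, 3 for each of 4 pieces. The pieces were the CA1 cell body layer (stratum pyramidale, packed with pyramidal neurons), the CA1 dendritic layer (stratum radiatum, with their apical dendrites, axons, interneurons, glia and vessels), the CA2 cell body layer and the CA2 dendritic layer.

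All 4 groups came from the same animals, 3 male Amigo2-EGFP mice (strain label Amigo2-GFP C57BL/6J) aged 6 to 8 weeks and drawn from separate litters. Every group therefore carried the reporter, which the Amigo2 gene drives and which marks CA2, and the labels do not say whether it guided the capture. No treatment was compared and no group lacked the reporter. Each RNA pooled captures from about 20 caps holding 5 sections apiece, so an array averages the cells of many sections. The CA1 arrays share a run number and the CA2 arrays share another, so a difference between regions and a difference between runs cannot be told apart, whereas the layers of a region were always compared inside 1 run.

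Oligodendrocytes arise from precursor cells, stop dividing and spread sheets of membrane that spiral around axons. The sheets are compacted by basic proteins on their inner faces, held at their edges by tight junctions and by contacts with the axon, and fed by high rates of cholesterol and galactolipid synthesis. Sox10 and Myrf are transcription factors of the lineage that act on many myelin genes, and messenger RNAs such as that of Mbp are carried out into the oligodendrocyte's processes and translated there.

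Because Sox10 and Myrf are known to act on myelin genes, the 250 bases before the annotated start of each gene were searched on both strands for the letters ACAAAG, which Sox proteins and other HMG-box factors read, and for CTGGCAC or CTGGTAC, which Myrf reads. The sequences are from RefSeq, build GRCm38.p6, and 8 of the 9 genes had an entry, Mbp being the gene without one. The first set of letters was present before a listed start of 5 genes (Mag, Mobp, Cnp, Opalin and Tspan2). It was present in 16.5% of 32851 promoter windows of the same length. The Myrf letters were present before 3 genes (Mog, Mag and Cnp) and in 5.93% of windows. Both stood before Mag and Cnp, as in 1.05% of windows, and neither before Ermn and Cldn11. A gene counts if any of its listed starts holds the letters, and Mag has 3 starts and Tspan2 has 2. The window before the upstream start of Tspan2 held no match. Its only match stood before the downstream start and so lay past the upstream start, not upstream of the whole gene. For Mag the window before the most downstream start held neither set of letters. Counts of genes with several starts are therefore not strictly comparable with shares of single windows. The window before Mobp held ACAAAG 6 times, all on the minus strand relative to the gene (read here as CTTTGT), and was the only 1 of the 32851 windows with at least 6. These 5 windows are shown to set a promoter with many Sox letters beside promoters with both, with the Myrf letters alone and with neither. They are written 5′ to 3′ on the strand of the gene, in lower case with the searched letters in capitals.
Mobp, chr9:120149492-120149741, plus strand: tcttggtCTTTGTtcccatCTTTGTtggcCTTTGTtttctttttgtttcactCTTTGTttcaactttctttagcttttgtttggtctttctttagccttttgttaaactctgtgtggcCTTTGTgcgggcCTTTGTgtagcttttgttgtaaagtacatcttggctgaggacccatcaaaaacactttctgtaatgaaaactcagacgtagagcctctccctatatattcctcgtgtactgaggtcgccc
Mag (upstream start), chr7:30914923-30915172, minus strand: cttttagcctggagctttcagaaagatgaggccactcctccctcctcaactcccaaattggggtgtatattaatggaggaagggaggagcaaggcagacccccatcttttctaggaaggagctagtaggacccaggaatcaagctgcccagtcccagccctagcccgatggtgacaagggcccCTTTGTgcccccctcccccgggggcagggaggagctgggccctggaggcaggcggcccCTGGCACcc
Cnp, chr11:100574689-100574938, plus strand: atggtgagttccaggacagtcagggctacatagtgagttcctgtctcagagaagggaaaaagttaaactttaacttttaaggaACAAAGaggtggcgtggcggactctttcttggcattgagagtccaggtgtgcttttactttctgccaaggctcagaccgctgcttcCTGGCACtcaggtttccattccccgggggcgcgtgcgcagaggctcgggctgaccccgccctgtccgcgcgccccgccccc
Mog, chr17:37023399-37023648, minus strand: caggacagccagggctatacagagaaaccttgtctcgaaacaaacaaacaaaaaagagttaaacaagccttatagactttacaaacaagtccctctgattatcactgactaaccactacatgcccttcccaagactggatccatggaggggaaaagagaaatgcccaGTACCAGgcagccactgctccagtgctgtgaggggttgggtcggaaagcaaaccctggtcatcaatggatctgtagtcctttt
Ermn, chr2:58052865-58053114, minus strand: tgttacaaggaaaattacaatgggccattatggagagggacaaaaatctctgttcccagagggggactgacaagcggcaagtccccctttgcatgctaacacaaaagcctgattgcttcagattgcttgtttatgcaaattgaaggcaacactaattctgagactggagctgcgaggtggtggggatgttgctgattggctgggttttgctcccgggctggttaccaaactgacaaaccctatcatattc
A match describes the letters and is not a binding site. In the Mag window the Myrf letters lay 9 to 3 bases before the start and the Sox letters 67 to 62 bases before it. In the Cnp window they lay 81 to 75 and 167 to 162 bases before the start. The 6 Sox matches of Mobp lay between 243 and 115 bases before its start.

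The captured layers were checked with markers, on the log2 scale of the arrays. Neurod6, a transcription factor of pyramidal neurons, lay at 12.22 to 12.38 in the CA1 cell body layer and 9.59 to 9.90 in the CA1 dendritic layer, and at 11.79 to 11.85 and 8.33 to 8.79 in CA2. Gfap, of astrocytes, ran the other way, at 7.51 to 7.73 and 10.85 to 11.04 in CA1 and at 7.83 to 8.20 and 11.05 to 11.49 in CA2. In the cell body layers, Amigo2 lay at 6.81 to 7.01 in CA1 and 9.60 to 9.94 in CA2, and the CA1 marker Wfs1 at 11.33 to 11.50 and 8.40 to 8.90. Amigo2 is the locus of the reporter as well as a CA2 marker. In the dendritic layers the CA2 markers separated the regions less. There Amigo2 lay at 6.95 to 7.19 in CA1 and 7.22 to 7.43 in CA2, and Rgs14 overlapped, at 7.54 to 7.70 and 7.59 to 7.74. Pcp4 lay at 11.07 to 11.46 and 11.93 to 12.14, above its 8.63 to 9.70 in CA1 cell bodies. The CA1 markers Wfs1 (9.93 to 10.32 and 8.23 to 8.49) and Fibcd1 (8.61 to 8.80 and 7.27 to 7.40) were higher in CA1. A set of 3 arrays stood apart: the mean of 11 oocyte transcripts was 7.37 to 7.52 on array 1 of the CA2 cell body layer and arrays 2 and 3 of the CA2 dendritic layer, and 5.26 to 5.67 on the other 9. Member results and list counts that rest on these 3 arrays are therefore also given without them, the list counts as an alternative chosen after seeing the data. Leaving them out keeps 1 CA2 dendritic array, and calls over all genes then fell in every comparison with that layer. A drop in the calls of a list is thus not by itself particular to that list. The mean of 3 hybridisation control features was 11.98 to 12.02 and 12.67 to 12.74 in the CA1 cell body and dendritic groups and 11.60 to 11.67 and 11.94 to 12.24 in those of CA2, and its part in the differences was not tested.

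All 9 myelin genes were higher in dendritic than in cell body tissue, in CA1 and CA2 alike. In CA1 the median difference of the 9 was 1.24 on the log2 scale (a difference of 1 is 2-fold), against 0.12 over all genes, and 9 of 9 were called higher by limma, where 28.3% of all genes were. In CA2 the median was 1.15, against -0.03 over all genes, and again 9 of 9 were called higher, where 16.2% of all genes were. Of all genes, 18.5% were called lower in the CA1 and 17.8% in the CA2 dendritic layer. At least 2-fold and called were 8 of 9 in CA1 (3.31% of all genes) and 6 of 9 in CA2 (3.27%). The dendritic arrays lay wholly above the cell body arrays for 9 of 9 genes in each region, as they did for 34.7% of all genes in CA1 and 21.7% in CA2. Called means an adjusted p under 0.05, from 1 limma fit of all arrays with Benjamini-Hochberg adjustment over the 30142 genes. The values are relative within an array, and the tissue is of mixed cells. In them the number of oligodendrocytes, the RNA in each of them and the share of RNA from other cells cannot be told apart.

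**Figure D1:**
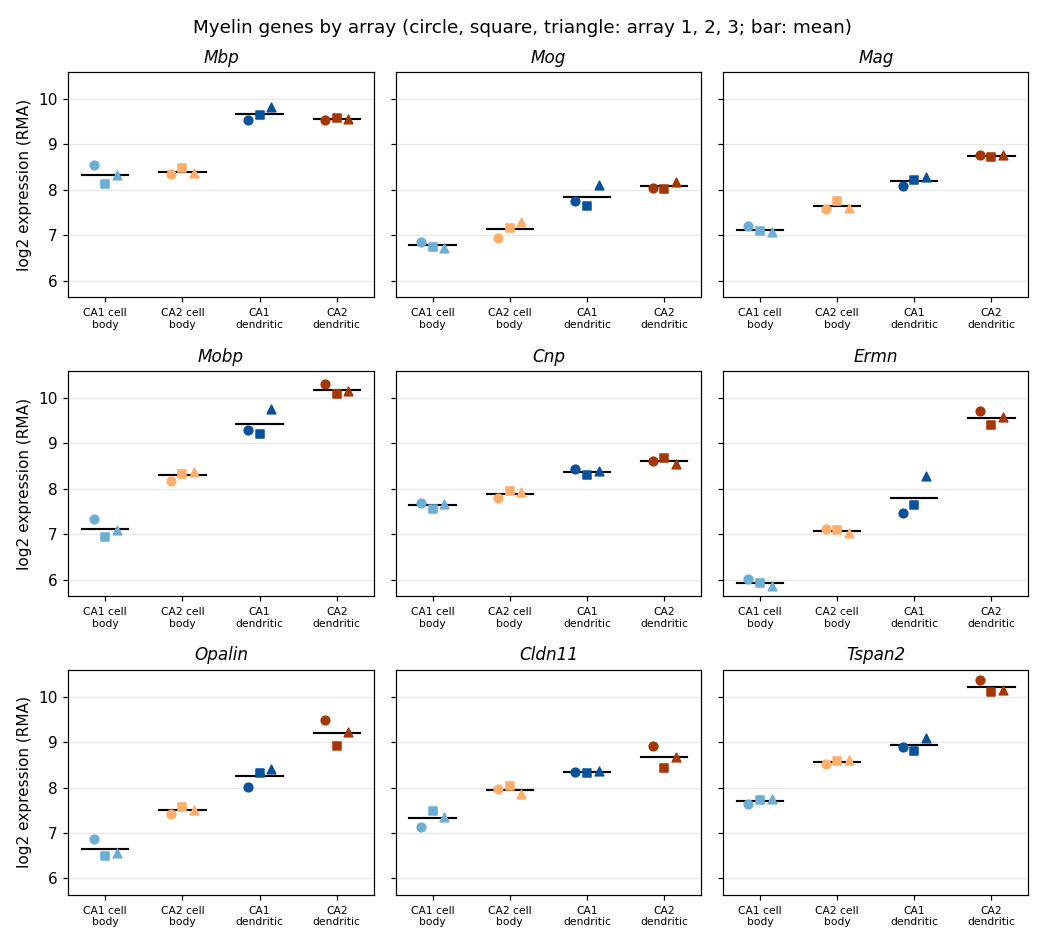
Log2 expression (vertical axis) of the 9 myelin genes in the 4 captured pieces (horizontal axis), with 1 symbol per array, the symbol's shape giving the array number and the bar the mean of 3 arrays. For every gene the CA1 and CA2 dendritic arrays lie above the cell body arrays of the same region, and for Mbp the regions overlap in each layer.

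Mbp, myelin basic protein, binds the inner faces of the membrane together and is needed for compaction. Its values on arrays 1, 2 and 3 were 8.54, 8.13 and 8.33 in the CA1 cell body layer and 9.54, 9.65 and 9.83 in the CA1 dendritic layer, and 8.35, 8.48 and 8.38 against 9.54, 9.57 and 9.55 in CA2. The layers did not overlap in either region, and the 3 CA2 dendritic arrays lay within the closest range seen for this gene. The rise was 1.34 ± 0.11 (SE, n = 3 arrays per group; adjusted p = 4.7e-06, limma) in CA1 and 1.15 ± 0.11 (adjusted p = 1.33e-05) in CA2.

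Mobp, the myelin-associated oligodendrocyte basic protein, is a second small basic protein of compact myelin. Its values were 7.33, 6.93 and 7.09 in the CA1 cell body layer and 9.30, 9.20 and 9.75 in the CA1 dendritic layer, and 8.18, 8.33 and 8.37 against 10.30, 10.09 and 10.14 in CA2. The 4 groups were fully separate, with array 3 of the CA1 dendritic layer the highest of its group. The rise was 2.30 ± 0.13 in CA1 (4.92-fold; adjusted p = 4.98e-07, limma), the largest of the 9 there, and 1.88 ± 0.13 in CA2 (3.69-fold; adjusted p = 1.64e-06).

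Cnp encodes the cyclic nucleotide phosphodiesterase of oligodendrocytes, which keeps cytoplasmic channels open in the myelin sheath. Its values were 7.69, 7.56 and 7.67 in the CA1 cell body layer and 8.43, 8.31 and 8.38 in the CA1 dendritic layer, and 7.80, 7.96 and 7.92 against 8.62, 8.67 and 8.55 in CA2. The groups did not overlap, although its layer differences were the smallest of the 9 in each region. The rise was 0.73 ± 0.07 in CA1 (adjusted p = 2.37e-05, limma) and 0.72 ± 0.07 in CA2 (adjusted p = 2.75e-05).

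Mog, an immunoglobulin-like protein on the outermost myelin surface, and Mag, an adhesion protein on the membrane facing the axon, also rose. Mog had values of 6.85, 6.75 and 6.73 in the CA1 cell body layer and 7.76, 7.64 and 8.11 in the CA1 dendritic layer, and 6.93, 7.17 and 7.29 against 8.04, 8.01 and 8.18 in CA2. The layers of Mog were separate in each region, while its dendritic arrays of CA1 and CA2 overlapped through array 3 of CA1. The rise of Mog was 1.06 ± 0.11 in CA1 (adjusted p = 2.01e-05, limma) and 0.95 ± 0.11 in CA2 (adjusted p = 4.55e-05). Mag had group means of 7.13 ± 0.07 and 8.19 ± 0.10 in CA1 and 7.65 ± 0.10 and 8.75 ± 0.02 in CA2 (cell body and dendritic layer, SD, n = 3 each), and its 4 groups did not overlap. The rise of Mag was 1.07 ± 0.08 in CA1 (adjusted p = 2.82e-06, limma) and 1.10 ± 0.08 in CA2 (adjusted p = 2.1e-06).

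Cldn11 is the claudin that forms the tight junctions between myelin layers, Tspan2 a tetraspanin of the oligodendrocyte membrane, and Opalin a glycoprotein of the myelin loops beside the node. Cldn11 had group means of 7.33 ± 0.18 and 8.35 ± 0.03 in CA1 and 7.95 ± 0.09 and 8.68 ± 0.24 in CA2 (cell body and dendritic layer, SD, n = 3). Its rise was 1.02 ± 0.13 in CA1 (adjusted p = 9.31e-05, limma) and 0.73 ± 0.13 in CA2 (adjusted p = 0.00107). Without the 3 arrays with oocyte transcripts the CA2 value was 1.12. That setting leaves 1 CA2 dendritic array, at 8.92 the highest of its group, beside 8.44 and 8.68 on the arrays left out. The cell body and dendritic arrays of Cldn11 did not overlap in either region. Tspan2 had values of 7.63, 7.72 and 7.74 in the CA1 cell body layer and 8.89, 8.81 and 9.10 in the CA1 dendritic layer, and 8.52, 8.58 and 8.61 against 10.37, 10.10 and 10.15 in CA2. The 4 groups of Tspan2 were separate, with array 1 of the CA2 dendritic layer the highest. The rise of Tspan2 was 1.24 ± 0.09 in CA1 (2.36-fold; adjusted p = 2.61e-06, limma) and 1.64 ± 0.09 in CA2 (3.11-fold; adjusted p = 3.47e-07).

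Opalin had values of 6.86, 6.50 and 6.56 in the CA1 cell body layer and 8.02, 8.31 and 8.41 in the CA1 dendritic layer, and 7.42, 7.58 and 7.50 against 9.49, 8.92 and 9.22 in CA2. Its 4 groups were separate, and the CA2 dendritic arrays were spread more widely than the CA2 cell body arrays. The rise was 1.61 ± 0.15 in CA1 (adjusted p = 1.41e-05, limma) and 1.71 ± 0.15 in CA2 (adjusted p = 9.15e-06).

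Ermn, ermin, is a cytoskeletal protein of late, myelinating oligodendrocytes. Its values were 6.01, 5.93 and 5.86 in the CA1 cell body layer and 7.46, 7.65 and 8.29 in the CA1 dendritic layer, and 7.11, 7.09 and 7.02 against 9.70, 9.41 and 9.58 in CA2. The CA1 cell body arrays were close to the medians of their arrays, and the CA1 dendritic group was the most spread of any member's (SD 0.43), with array 3 the highest. The rise was 1.87 ± 0.17 in CA1 (3.65-fold; adjusted p = 1.01e-05, limma) and 2.49 ± 0.17 in CA2 (5.62-fold; adjusted p = 1.29e-06), the largest of the 9 in CA2. Without the 3 arrays with oocyte transcripts, the CA2 rises of the 9 genes ran from 0.60 (Cnp) to 2.84 (Ermn). They then rest on 1 CA2 dendritic array, which lay above its group mean for 7 of the 9 genes.

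**Figure D2:**
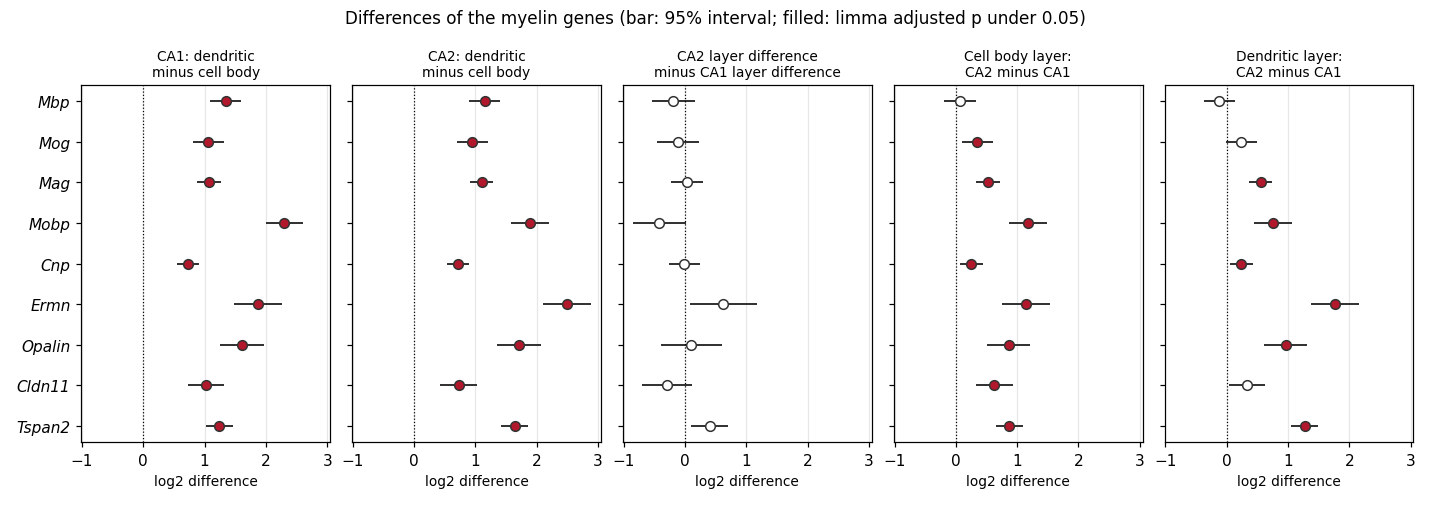
Log2 differences (horizontal axis) of the 9 myelin genes (vertical axis) in the 5 comparisons, with 95% intervals from the limma fit and filled points for genes called at an adjusted p under 0.05. Both layer panels hold 9 filled points right of 0, the panel of the layer difference of CA2 minus that of CA1 holds none, and Mbp lies nearest to 0 in the cell body panel.

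Whether the layer difference itself differed between CA2 and CA1 was tested with the interaction term, in which a run shift equal in both layers cancels. None of the 9 genes was called (0 of 9 by limma, where 11.6% of all genes were called in either direction and 4.81% with a positive interaction), and 3 had an unadjusted p under 0.05, as 31.3% of all genes did. These were Ermn, with a layer difference larger in CA2 by 0.62 (95% interval 0.10 to 1.15; adjusted p = 0.108), Tspan2, larger by 0.40 (0.11 to 0.69; adjusted p = 0.0701), and Mobp, at -0.42 (-0.83 to -0.0048; adjusted p = 0.156). The interaction was positive in 3 of 3 same-numbered sets of arrays for Ermn and Tspan2 and negative in 2 of 3 for Mobp. The labels do not say that a number stands for a mouse, so these sets are not known to be matched. The other 6 genes had interactions from -0.29 (Cldn11, 95% interval -0.69 to 0.11) to 0.10 (Opalin, -0.37 to 0.58). Without array 3 of the CA1 dendritic layer, Ermn was called at 0.89 (adjusted p = 0.00504) and Tspan2 at 0.48 (adjusted p = 0.0348). With that array kept, Tspan2 passed at the same 0.40 when only genes at or above the median level (adjusted p = 0.049) or at least as bright as the dimmest of the 9 (adjusted p = 0.0326) were tested. Without all arrays numbered 3, Ermn was at 0.87 (adjusted p = 0.0442). These were the only calls: of 25 alternatives, Ermn was called in 2 and Tspan2 in 3. Across the 25, the interaction fell as low as 0.37 for Ermn and 0.29 for Tspan2. The adjusted p reached 0.409 for Ermn and 0.276 for Tspan2 (limma). Without the 3 arrays with oocyte transcripts, Ermn was at 0.98 (adjusted p = 0.197) and Tspan2 at 0.62 (adjusted p = 0.106).

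In the cell body layers, 8 of the 9 genes were higher in CA2 than in CA1, where 10.6% of all genes were called higher and 10.5% lower, and Mbp was the exception. The median difference of the 9 was 0.63, against 0.02 over all genes. The largest were Mobp at 1.18 ± 0.13 (2.26-fold; adjusted p = 1.51e-04, limma) and Ermn at 1.14 ± 0.17 (2.20-fold; adjusted p = 8.76e-04). Tspan2 followed at 0.87 ± 0.09 (adjusted p = 9.56e-05), Opalin at 0.86 ± 0.15 (adjusted p = 0.00255), Cldn11 at 0.63 ± 0.13 (adjusted p = 0.00571) and Mag at 0.52 ± 0.08 (adjusted p = 0.00111). The CA2 arrays lay wholly above the CA1 arrays for these 6 and for Cnp and Mog, which gives 8 of 9 genes, where 23.9% of all genes were so separated. Mog at 0.35 ± 0.11 (adjusted p = 0.0374) and Cnp at 0.25 ± 0.07 (adjusted p = 0.0356) passed narrowly. At least 2-fold and called were 2 of 9 (0.886% of all genes). Mbp differed by 0.07 (95% interval -0.17 to 0.31; adjusted p = 0.724), with CA2 higher in 2 of 3 same-numbered pairs, which are not known to be matched. In all of these values the region and the array run cannot be told apart.

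The narrow calls in the cell body layers were lost with fewer arrays, in part with no smaller difference. Mog missed the threshold at an unchanged 0.35 without array 1, 2 or 3 of the CA2 dendritic layer, which lie outside this comparison (adjusted p = 0.0504, 0.0513 and 0.0513, limma). It stood at 0.38 and 0.24 without array 2 or 3 of the CA1 cell body layer (adjusted p = 0.0855 and 0.175) and at 0.29 and 0.33 without array 2 or 3 of the CA2 cell body layer (adjusted p = 0.168 and 0.13). Cnp stood at 0.28, 0.20 and 0.27 without array 1, 2 or 3 of the CA1 cell body layer (adjusted p = 0.0668, 0.166 and 0.0798) and at 0.21 and 0.24 without array 2 or 3 of the CA2 cell body layer (adjusted p = 0.166 and 0.13). Without all arrays numbered 3, 4 of 9 genes were called, Opalin at 0.82 (adjusted p = 0.0521) and Cldn11 at 0.69 (adjusted p = 0.0577) being lost beside Mog and Cnp. Without the 3 arrays with oocyte transcripts, 7 of 9 were called and Mog was at 0.45 (adjusted p = 0.0542).

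In the dendritic layers, 6 of the 9 genes were higher in CA2 than in CA1, where 11.6% of all genes were called higher and 18.6% lower. The median difference of the 9 was 0.55, against -0.11 over all genes. Ermn differed by 1.76 ± 0.17 (3.39-fold; adjusted p = 1.32e-04, limma), which placed it 25th from the top among the 30142 genes. Tspan2 was at 1.27 ± 0.09 (2.42-fold; adjusted p = 4.39e-05) and stood 69th. Opalin at 0.96 ± 0.15 (adjusted p = 0.00159), Mobp at 0.76 ± 0.13 (adjusted p = 0.00257), Mag at 0.55 ± 0.08 (adjusted p = 9.59e-04) and Cnp at 0.24 ± 0.07 (adjusted p = 0.0359) were also called. Cldn11 at 0.33 (95% interval 0.05 to 0.62; adjusted p = 0.0695) and Mog at 0.24 (0.01 to 0.47; adjusted p = 0.104) were not, and Mbp lay at -0.12 (-0.36 to 0.12; adjusted p = 0.397). The CA2 arrays lay wholly above the CA1 arrays for 7 of 9 genes, as for 13.8% of all genes. Called and at least 2-fold were 2 of 9 (0.292% of all genes), and 8 of 9 had an unadjusted p under 0.05 (44.9% of all genes, in either direction).

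Leaving out arrays moved the weaker of these calls. Without the 3 arrays with oocyte transcripts 1 CA2 dendritic array is left, so only the differences are given here. They were 2.03 for Ermn, 1.49 for Tspan2, 1.25 for Opalin, 0.84 for Mobp, 0.67 for Cldn11 and 0.58 for Mag. Mog was at 0.205, Cnp at 0.19 and Mbp at -0.17. Cnp was lost without array 2 or 3 of the CA1 dendritic layer (0.20 and 0.24; adjusted p = 0.115 and 0.0597, limma). It was also lost without array 1 or 2 of the CA2 dendritic layer (0.24 and 0.20; adjusted p = 0.0887 and 0.134). At an unchanged 0.24 it was lost without array 3 of the CA1 or the CA2 cell body layer, outside this comparison (adjusted p = 0.0507 and 0.0524). Cldn11 was gained without array 2 of the CA2 dendritic layer (0.49; adjusted p = 0.0191) or array 1 of the CA1 cell body layer (0.33; adjusted p = 0.0472), and Mog without array 3 of the CA1 dendritic layer (0.34; adjusted p = 0.0396).

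From lowest to highest, the group means of 8 genes ran in the same order, CA1 cell body, CA2 cell body, CA1 dendritic and CA2 dendritic. For Mbp the last pair was reversed, with 9.67 ± 0.15 in the CA1 and 9.55 ± 0.02 in the CA2 dendritic layer (SD, n = 3). Neighbours in this order overlapped for Mbp between the regions in each layer and for Mog between the dendritic layers, and for no other pair of neighbours. Ermn spanned the widest range, with 5.93 ± 0.08 in CA1 cell bodies and 9.56 ± 0.15 in CA2 dendritic tissue, and Cnp the narrowest, from 7.64 ± 0.07 to 8.61 ± 0.06.

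Because Mbp differed from the other 8 in the comparison of regions, each gene's value minus that of Mbp on the same array was compared, a measure chosen after the values had been seen and given without a test. In each layer Mbp had the lowest region difference of these genes, so the mean of every other gene minus Mbp was bound to be higher in CA2. The counts that follow therefore only describe how far the arrays were apart. In the dendritic layers the value was higher on every CA2 array than on every CA1 array for 8 of 8 genes (18.6% of all genes). In the cell body layers this held for 7 of 8 (7.47% of all genes). Ermn minus Mbp lay between -2.08 and -1.54 in the CA1 dendritic layer and between -0.16 and 0.16 in the CA2 dendritic layer. Tspan2 minus Mbp lay between -0.84 and -0.65 in the CA1 dendritic layer and between 0.53 and 0.83 in the CA2 dendritic layer. Mog minus Mbp was the value that overlapped in the cell body layers, with -1.69 to -1.38 in CA1 and -1.42 to -1.09 in CA2. These are changes in a difference between genes and say nothing of the genes' relative abundance.

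The genes were compared with each other over the 12 arrays, which share 4 groups, so the layer difference enters every correlation. Pearson's r over the 36 pairs of genes ran from 0.761 to 0.993, with a median of 0.951. Within groups, where each value is the deviation from the mean of its 3 arrays, r ran from -0.427 to 0.792, with a median of 0.483 and 30 of 36 pairs above 0. On array 3 of the CA1 dendritic layer all 9 genes lay above their group mean, by 0.189 on average and by 0.49 for Ermn and 0.33 for Mobp. Of the 25 other mature oligodendrocyte genes, 19 were above their group mean on that array, by 0.110 on average. There 8 of 12 astrocyte, 6 of 10 precursor, 5 of 11 microglial, 5 of 10 endothelial and 3 of 6 pyramidal neuron genes were above theirs. On array 2 of the CA2 cell body layer all 9 genes were also above, by 0.0574 on average. So were 10 of 10 precursor genes on that array, by 0.049 on average, and 7 of 12 astrocyte, 6 of 11 microglial and 4 of 10 endothelial genes. The share of all genes above their group mean was not counted for any array. In the CA2 dendritic layer array 1 was above for 7 of 9 genes and array 2 for 2 of 9, with mean deviations of 0.101 and -0.0996.

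**Figure D3:**
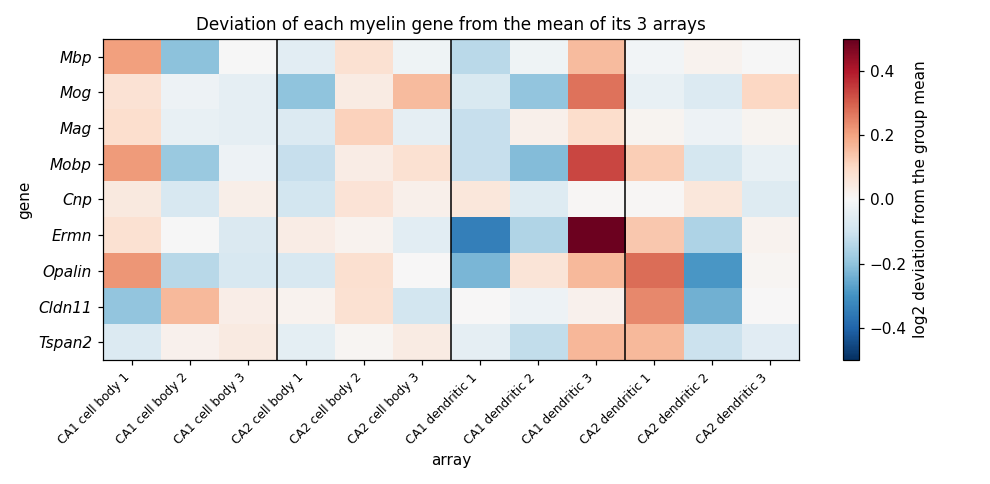
Deviation of each of the 9 myelin genes (rows) from the mean of its group on each of the 12 arrays (columns), as colour on the log2 scale from blue (below) to red (above). Array 3 of the CA1 dendritic layer is above 0 for 9 of 9 genes, most of all for Ermn (0.49) and Mobp (0.33).

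Other genes of mature oligodendrocytes were also higher in the dendritic layers. Of 29 listed, 25 were measured, and 22 were higher and 1 lower in the dendritic layer of CA1 (median 1.17, limma) and 20 higher and 0 lower in CA2 (median 1.33). Among all genes, 28.3% were called higher and 18.5% lower in CA1, and 16.2% and 17.8% in CA2. Cmtm5 rose by 2.84 in CA1 and 2.43 in CA2, Apod, a lipid carrier, by 2.48 and 2.30, and Car2, a carbonic anhydrase of oligodendrocytes, by 1.68 and 1.98. Cryab, a small heat shock protein, rose by 2.11 in CA1. Anln, anillin, a scaffold of dividing cells that also assembles septins in myelin, fell by 0.94 in CA1 (adjusted p = 1.8e-05) and rose by 0.99 in CA2 (adjusted p = 1.23e-05). Between the regions, 12 of the 25 were higher and 1 lower in the CA2 cell body layer (median 0.24), and 14 higher and 2 lower in the CA2 dendritic layer (median 0.32). The shares of all genes were 10.6% higher and 10.5% lower in the cell body layer, and 11.6% and 18.6% in the dendritic layer. Tmem88b differed by 0.87 in each layer, Qdpr, which regenerates tetrahydrobiopterin, by 0.63 and 0.48, and Aspa, which cleaves N-acetylaspartate in oligodendrocytes, by 0.98 in the dendritic layer. Anln was the gene lower in the CA2 cell body layer, at -1.68. When the 3 arrays with oocyte transcripts were left out, 16 were higher between the CA2 layers (median 1.14), 9 were higher and 1 lower in the CA2 cell body layer (median 0.22), and 4 were higher and 0 lower in the CA2 dendritic layer (median 0.36).

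Genes of the earlier stages of the lineage were also higher in the dendritic layers, where 28.3% of all genes were called higher in CA1 and 16.2% in CA2. Of 10 measured precursor genes (11 listed), 10 were called higher in CA1 (median 1.28) and 9 in CA2 (median 1.10), among them Lhfpl3 (2.87 and 2.31) and Ptprz1, a receptor phosphatase (2.60 and 2.51). Of 5 measured genes of newly formed oligodendrocytes (6 listed), 4 were higher in each region (median 1.19 and 1.38), among them Itpr2, a calcium channel of the endoplasmic reticulum (1.58 and 1.66), and Bcas1 (1.33 and 1.39). Between regions, 4 precursor genes were higher and 0 lower in the CA2 cell body layer (median 0.10), and 2 higher and 2 lower in the CA2 dendritic layer (median -0.09). The shares of all genes were 10.6% higher and 10.5% lower in the cell body layer. In the dendritic layer they were 11.6% and 18.6%, near the precursor counts there. Vcan, a matrix proteoglycan, was higher in the CA2 cell body layer by 1.44. Of the newly formed oligodendrocyte genes, 2 were higher in the CA2 cell body layer (median 0.21) and 3 in the CA2 dendritic layer (median 0.50), with Bcas1 at 0.49 and 0.56 and Enpp6 at 0.50 in the dendritic layer. Leaving out the 3 arrays with oocyte transcripts, limma called 7 precursor and 3 newly formed oligodendrocyte genes higher between the CA2 layers, and 3 and 2 in the CA2 cell body layer. In the CA2 dendritic layer 0 of either list were then called by limma (3 and 2 at an unadjusted p under 0.05; medians -0.00083 and 0.37).

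Of 10 transcription factors of the lineage, 9 were called higher in the dendritic layer of CA1 (median 0.70) and 9 in that of CA2 (median 0.44). The shares of all genes called higher were 28.3% and 16.2%. Sox8 rose by 1.31 and 0.90, Olig2 by 1.01 and 0.81 and Sox10 by 0.78 and 0.57, while Myrf rose by 0.25 (adjusted p = 0.00622, limma) and 0.37 (adjusted p = 6.34e-04). Between the cell body layers 0 of 10 were called by limma (2 at an unadjusted p under 0.05; median 0.15), and the smallest adjusted p was 0.0613, for Olig1 at 0.33. Among all genes, 10.6% were called higher and 10.5% lower there. In the dendritic layers Myrf was higher in CA2 by 0.23 (adjusted p = 0.0177), and Zfp488 and Sox8 were lower, at -0.42 (adjusted p = 0.0141) and -0.39 (adjusted p = 0.0148). That made 2 called higher and 2 lower in that comparison, with a median of -0.03. These counts were near the shares of all genes, 11.6% higher and 18.6% lower. On the arrays without high oocyte transcripts, 4 of 10 were higher between the CA2 layers (median 0.41), and 0 were called between the dendritic layers (limma, 3 at an unadjusted p under 0.05; median -0.11) or the cell body layers (4 at an unadjusted p under 0.05).

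Of 15 listed enzymes of myelin lipids and cholesterol, 13 were measured, and 10 were higher and 1 lower in the dendritic layer of each region (median 0.44 in CA1 and 0.86 in CA2). Among all genes, 28.3% were called higher in CA1 and 16.2% in CA2. Ugt8a and Fa2h, which make galactolipids and their hydroxylated fatty acids, rose by 1.54 and 1.39 in CA1 and by 1.70 and 1.23 in CA2. Elovl1, a fatty acid elongase, rose by 1.03 and 0.997. Sptlc2, a subunit of the enzyme that starts sphingolipid synthesis, was the gene that fell, by 0.37 in each region. Between the regions 9 were higher and 1 lower in the CA2 cell body layer (median 0.26) and 9 higher and 0 lower in the CA2 dendritic layer (median 0.26). The shares of all genes were 10.6% higher and 10.5% lower in the cell body layer, and 11.6% and 18.6% in the dendritic layer. Elovl7, another elongase, differed by 1.58 in the cell body layer. Of the cholesterol pathway, Idi1 differed by 1.50, Hmgcs1 by 0.77 and Sqle by 0.77 in the dendritic layer. With those arrays left out, 8 of these 13 enzymes were higher and 0 lower between the CA2 layers (median 0.91), and 3 were higher and 0 lower in the CA2 cell body layer (median 0.24) and in the CA2 dendritic layer (median 0.36).

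Among genes of the contacts between axon and glia, more fell than rose. Of 12 measured (13 listed), 2 were higher and 7 lower in the dendritic layer of CA1 (median -0.38; 18.5% of all genes were called lower) and 3 higher and 8 lower in that of CA2 (median -0.41; 17.8% of all genes). Many of these proteins lie on the axon or are made by neurons as well: Cntnap2, an adhesion protein beside the paranode, fell by 1.76 in CA1, and Ank3, the ankyrin of nodes and axon initial segments, fell by 0.78 in CA1 and 0.74 in CA2. Between the regions, 2 were higher and 3 lower in each layer of CA2 (median -0.10 in the cell body and -0.04 in the dendritic layer). The shares of all genes were 10.6% higher and 10.5% lower in the cell body layer, and 11.6% and 18.6% in the dendritic layer. Of 8 genes for myelin-associated growth inhibitors and their receptors, 2 were higher and 5 lower in CA1 (median -0.47), and 1 higher and 4 lower in CA2 (median -0.35). Rtn4, which encodes Nogo, fell by 0.64 and 0.45, and Lingo1, a subunit of its neuronal receptor complex, by 0.84 and 1.65. In CA2 against CA1, 0 were higher and 4 lower in the cell body layer (median -0.25), and 1 higher and 5 lower in the dendritic layer (median -0.30). The junction genes, with the 3 arrays left out, counted 2 higher and 6 lower between the CA2 layers, 1 higher and 2 lower in the CA2 cell body layer, and 0 higher and 1 lower in the CA2 dendritic layer. The inhibitors and receptors then counted 0 higher and 3 lower, 0 higher and 1 lower, and 0 higher and 1 lower. Of 3 measured genes of peripheral myelin (5 listed), 3 rose in CA1 (median 0.25) and 1 in CA2 (median 0.03). The latter was Pmp22, at 1.42 in CA1 and 1.44 in CA2, which other cells of the brain express too. Between the regions 0 of 3 were called in the cell body layer (median 0.22; limma, 2 at an unadjusted p under 0.05, with an adjusted p of 0.0509 for Pmp22 at 0.26) and 1 in the dendritic layer (Pmp22 at 0.28; list median -0.16). These counts without the 3 arrays were 1 between the CA2 layers, 0 in the cell body layer and 0 in the dendritic layer (limma, 2 and 1 at an unadjusted p under 0.05).

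Markers of other cell types moved with the myelin genes between layers, and their part in the myelin results was not tested. Among all genes, 28.3% were called higher and 18.5% lower in CA1, and 16.2% and 17.8% in CA2. Of 12 astrocyte markers 12 were higher in the dendritic layer of CA1 (median 1.98) and 12 in that of CA2 (median 1.75), their mean level lying at 7.73 to 7.75 on the CA1 cell body and 9.68 to 9.73 on the CA1 dendritic arrays, and at 7.95 to 8.00 and 9.69 to 9.80 in CA2. Of 11 microglial markers 11 were higher in each (medians 1.91 and 1.39), and of 10 endothelial markers 10 (medians 2.16 and 2.25). The 6 mural markers were higher in each (medians 1.82 and 1.88), as were 7 and 6 of the 9 interneuron markers, with 1 and 0 lower (medians 1.20 and 1.20). Of 6 pyramidal neuron markers, 4 were lower in CA1 (median -0.49) and 6 in CA2 (median -1.21), and 0 were higher. Of 5 CA1 neuron markers 4 were lower in CA1 and 1 in CA2 (medians -1.36 and -0.28). Of 6 CA2 neuron markers 2 were higher and 1 lower in CA1 (median 0.08), and 6 were lower in CA2 (median -2.19). Of 3 dentate granule cell markers 1 was higher in each region (Prox1; medians 0.26 and -0.02), and of 3 choroid plexus markers 1 was lower in CA1 (Kl; median 0.11) and 0 in CA2 (median 0.05; limma, 0 also at an unadjusted p under 0.05). Of 11 oocyte transcripts 1 was higher in each region (medians 0.21 and 0.57). Leaving out the 3 arrays with oocyte transcripts, the counts higher between the CA2 layers were 12 for astrocytes, 10 for microglia, 8 for endothelium, 5 for mural cells and 5 for interneurons. Of the neuron lists, 4 pyramidal, 2 CA1 and 5 CA2 markers were then lower between the CA2 layers. There 1 choroid plexus marker was lower, and 1 dentate marker and 1 oocyte transcript were higher.

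Between the regions the microglial and endothelial lists differed in direction in the dendritic layer. The shares of all genes were 10.6% higher and 10.5% lower in the CA2 cell body layer, and 11.6% and 18.6% in the CA2 dendritic layer. Small counts, such as those of astrocyte markers in the dendritic layer and of mural and interneuron markers in the cell body layer, lie near these shares. In the CA2 dendritic layer, 9 of 11 microglial markers were lower and 0 higher (median -0.45), 7 of 10 endothelial markers were higher and 0 lower (median 0.44), and 2 of 12 astrocyte markers were higher and 2 lower (median 0.03). In the CA2 cell body layer, 1 microglial marker was lower (median 0.06), 4 endothelial markers were higher (median 0.31), and 4 astrocyte markers were higher and 1 lower (median 0.19). Mural markers were higher in 1 and 2 of 6 (cell body and dendritic layer; medians 0.10 and 0.14). Interneuron markers were higher in 1 and 4 of 9 and lower in 1 and 2 (medians 0.17 and 0.24). Pyramidal neuron markers were higher in 2 and lower in 1 of 6 in the CA2 cell body layer (median 0.23) and lower in 4 of 6 in the CA2 dendritic layer (median -0.47). The CA1 neuron markers were lower in 3 and 2 of 5 (medians -1.94 and -0.31), and the CA2 neuron markers higher in 6 and 3 of 6 (medians 2.95 and 0.48). Dentate markers were called in 0 of 3 in both layers (limma, 1 and 0 at an unadjusted p under 0.05; medians 0.17 and -0.04). Of the choroid plexus markers, Kl was lower in the CA2 cell body layer and 0 were called in the dendritic layer (limma, 1 at an unadjusted p under 0.05; medians 0.04 and -0.02). Of the oocyte transcripts 0 and 3 of 11 were called higher (limma, 1 in the cell body layer at an unadjusted p under 0.05; medians 0.88 and 1.33). When those 3 arrays were left out, 3 microglial markers were lower, 2 endothelial markers higher and 1 astrocyte marker lower in the CA2 dendritic layer, with medians of -0.46, 0.33 and 0.02. In the CA2 cell body layer the counts were then 1 higher and 1 lower for microglia, 4 higher for endothelium, and 3 higher and 1 lower for astrocytes. For the cell body and the dendritic layer they were 1 and 2 higher for mural cells, 0 and 1 higher and 1 and 0 lower for interneurons, and 2 and 0 higher and 1 and 3 lower for pyramidal neurons. The CA1 neuron markers stood at 3 and 2 lower, the CA2 neuron markers at 6 and 2 higher, the dentate markers at 0 and 0 (limma, 1 and 0 at an unadjusted p under 0.05), the choroid plexus markers at 1 and 1 lower and the oocyte transcripts at 6 and 1 higher. The part of these cell types and transcripts in the myelin gene differences between regions was not tested.

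**Figure D4:**
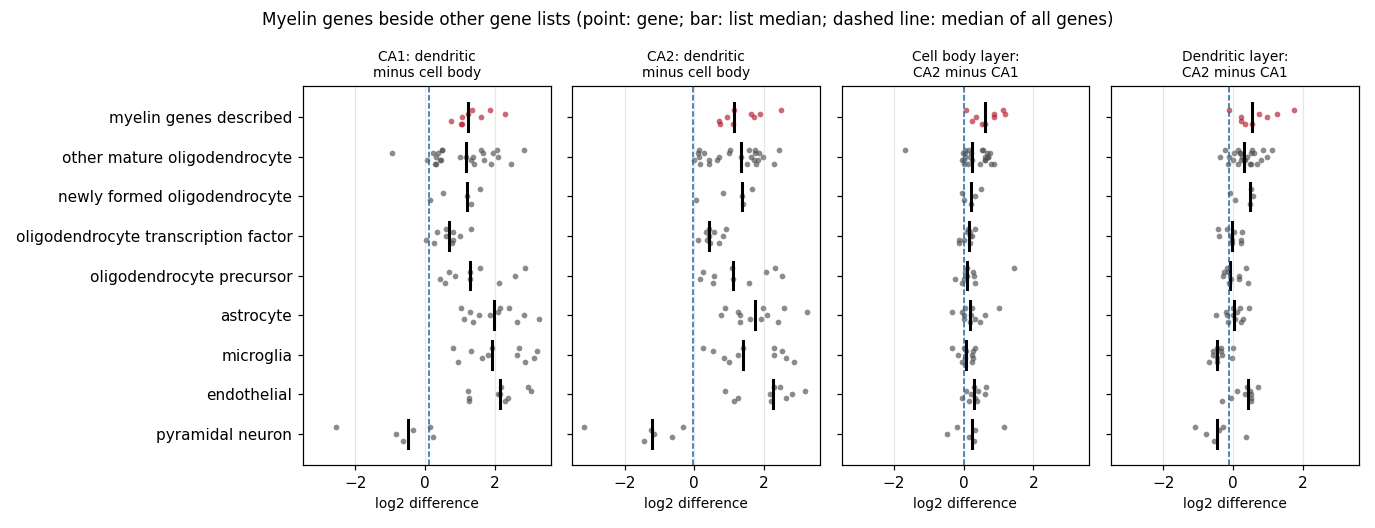
Log2 differences (horizontal axis) of the 9 myelin genes and of 8 other gene lists (rows), 1 point per gene, with a bar at each list's median and a dashed line at the median of all genes, for both layer and both region comparisons. The myelin genes lie right of 0 with the other glial and vascular lists in the layer panels (medians 1.24 and 1.15), and in the dendritic region panel their median is 0.55 while that of the microglial list is -0.45.

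The genes whose pattern was most like that of the 9 were found by scaling each member over the 12 arrays, averaging the 9 and correlating every other gene whose group means spanned at least 1 on the log2 scale, of which there were 3770. The 10 highest values of Pearson's r were 0.992 to 0.995, with 12 arrays that share 4 groups, and are descriptions only. They were Sema6a (0.995), Clic4 (0.995), Rora (0.994), Gjc3 (0.993), Trf (0.993), Erbin, Hmbox1, Rida and Pitpnc1 (0.992 each) and 1 gene model that is not named. Gjc3, a gap junction protein, and Trf, transferrin, stood on the list of other mature oligodendrocyte genes. Trf had group means of 7.89, 9.60, 8.44 and 10.19 in the CA1 cell body, CA1 dendritic, CA2 cell body and CA2 dendritic layers. Sema6a, a transmembrane semaphorin, had 6.54, 8.02, 7.04 and 8.62 in the same order. Of the 9 members, Mag had the highest r with their average (0.996) and Mbp the lowest (0.899). Each member is part of that average, so these values are not comparable with those of the other genes.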

How the data were processed

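The authors deposited log2 expression values, normalized by RMA according to the submitters' processing notes. Which program was used, and which arrays were normalized together, is not given in the sources used here. RMA (robust multi-array average) gives the probes of each array of a set the same distribution before they are summarised, so values are relative within an array. The summarised features need not share a distribution, and their medians ran from 5.68 to 5.88 over the arrays. The platform annotation covered 32750 of 72688 features, with 1 symbol for 30604 and several for 2146, and 827 symbols were updated through RefSeq (22818 features matched); the brightest feature was kept for 355 genes with several, which left 30142. No filter was set on low values, and all 9 genes were tested. The number of arrays limits the precision.

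Genes were tested with limma 3.58.1 in R 4.3.3, in 1 fit of 12 arrays with a mean per group and a block for the replicate number, two-sided, with Benjamini-Hochberg adjustment. The fit was tested on simulated data. Genes named from each list are among the 3 with the smallest p in a comparison, and some of these are given in further comparisons; Car2, Sox10, Myrf, Ugt8a, Fa2h and Sptlc2 are also given in comparisons where they were outside the first 3. The 9 genes and the other lists were chosen with earlier results of these data known. The labels number the arrays 1 to 3 without saying that a number is a mouse.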

Additional observations from a re-analysis of the deposited data

Results flagged for a closer look

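Of 83 genes measured on 7 oligodendrocyte lists, 18 (21.7%) had a layer difference (dendritic minus cell body, log2) that differed between CA2 and CA1 by the limma interaction test, in which 11.6% of all genes were called. The 15 given here are those among the 3 smallest p of each list. The interaction is that of CA2 minus CA1, adjusted over all genes, and no cause was tested. Among the mature oligodendrocyte genes, Anln had an interaction of 1.93 (-0.94 in CA1 and 0.99 in CA2; adjusted p = 2.8e-05), Cmtm5 of -0.41 (2.84 and 2.43; adjusted p = 0.0458) and Gpr37 of 0.37 (0.29 and 0.66; adjusted p = 0.0467). Of the transcription factors, St18 had 0.39 (0.02 and 0.41; adjusted p = 0.0341). Of the cholesterol enzymes, Idi1 had 1.13 (0.61 and 1.74; adjusted p = 8.1e-04), Sqle 0.50 (0.07 and 0.57; adjusted p = 0.0097) and Lss 0.49 (0.40 and 0.89; adjusted p = 0.0138). Of the junction genes, Cntnap2 had 1.02 (-1.76 and -0.74; adjusted p = 0.00194), Jam3 0.89 (0.06 and 0.95; adjusted p = 0.00967) and Cntnap1 -0.72 (0.23 and -0.49; adjusted p = 0.024). Of the inhibitors and receptors, Omg had 0.69 (-0.56 and 0.13; adjusted p = 0.0165) and Lingo1 -0.81 (-0.84 and -1.65; adjusted p = 0.0222). Of the precursor genes, Vcan had -1.56 (2.14 and 0.58; adjusted p = 4.64e-05), Lhfpl3 -0.56 (2.87 and 2.31; adjusted p = 0.00566) and Matn4 -0.39 (0.56 and 0.17; adjusted p = 0.0376). Without the 3 arrays with oocyte transcripts, which leaves 1 CA2 dendritic array, all 15 kept their sign. Their interactions then ran from -1.43 (Vcan) to 1.99 (Anln). That list setting was chosen after seeing the data.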

How the results depend on the processing

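Over 26 alternatives the 9 genes were called higher in the dendritic layer in every alternative, in CA1 and in CA2. For the interaction, 1 gene was called among genes at or above the median level and 1 among genes at least as bright as the dimmest of the 9 (Tspan2, adjusted p = 0.049 and 0.0326, limma; fewer genes were tested), and leaving out arrays gave 0 to 2. In the cell body layers leaving out arrays gave 4 to 8 genes higher in CA2, and in the dendritic layers 5 to 7, or 4 without the arrays with oocyte transcripts. Of 18 same-numbered pairs of arrays, 1 had deviations correlated above 0.1 (range -0.346 to 0.132), which does not settle whether a number stands for a mouse. Without the replicate block, 7 genes were higher in the CA2 cell body layer (Mog, adjusted p = 0.0513) and 7 in the CA2 dendritic layer (Cldn11, adjusted p = 0.044), the layers gave 9 and 9 and the interaction 0. A random block gave the same counts. Median centring called Cldn11 in the dendritic layers (0.44, adjusted p = 0.0256). Because it subtracts a constant per array, it shifts the region differences of all genes by the same amount, here upward in both layers. Mbp moved from -0.12 to -0.01 in the dendritic layers, and Cnp from 0.25 to 0.35 in the cell body layers. In all, 20 values that passed in neither fit changed sign, and no called value did. Over all genes, the calls without the arrays with oocyte transcripts fell from 3504 to 699 for the interaction, from 9105 to 1918 for the dendritic layers and from 10251 to 5707 for the CA2 layers. For the dendritic layers they were 3109 with the 2 groups fitted alone (a setting that gives no interaction) and 5579 with array weights. Among the 9469 genes at least as bright as the dimmest of the 9, they were 6964 against 14122 for the CA1 layers, 6705 for the CA2 layers and 5081 for the dendritic layers. Leaving out arrays took them as low as 697 for the interaction, 3451 against 6367 for the cell body layers and 3663 for the dendritic layers. Apart from the smaller gene sets and fewer arrays, the cause of these changes was not tested.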
